A study of Mus musculus with 17 samples.

Results

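Acetylated regions of histone H3 were formed by merging the peaks of 8 ChIP-seq peak lists, 4 for H3K9ac and 4 for H3K56ac, wherever peaks overlapped by 1 bp or more, and the regions on mm9 sequences whose names hold "random" are described here. Of 6400 regions in all, 221 lay on such sequences, called contigs below, and 6179 lay on placed chromosomes, the mitochondrial genome included. The name chrUn_random is used in mm9 for sequence assigned to no chromosome, whereas chrY_random and its like collect pieces that were assigned to a chromosome but not located on it. The term unplaced is therefore strictly true of the 114 regions on chrUn_random. A further 86 regions lay on chrY_random. The remaining 21 were spread over chrX_random with 6 regions, chr8_random with 5, chr9_random with 4, and chr1_random, chr4_random and chr7_random with 2 each. These sequences join contigs end to end, so that positions on them give no true order or distance in the genome. Merging is set by the overlap alone: the chr9_random regions at 242045 to 242437 and 242453 to 243629 were 15 bp apart and stayed separate.

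Mouse embryonic stem (ES) cells of the 129 strain that lacked Sirt6 (KO) or carried it (WT) were profiled for H3K9ac and H3K56ac, after retinoic acid (RA) or untreated. For RA, cells were kept without LIF, the cytokine that holds ES cells undifferentiated, given RA for 2 days, and harvested the day after its removal; the maintenance medium held LIF. Sirt6 itself was profiled in untreated cells, with 2 KO libraries that differed in antibody amount and 1 WT library, each called against whole-cell extract of its own genotype. All cells were grown on irradiated feeder fibroblasts, which were removed by plating; the labels name no clone, and no deposited value measures leftover feeder cells. Every group held a single library. Differences between conditions therefore come without any replicate error, and none was tested. The intervals given are at 95% and reflect counting alone, and regions are not independent replicates.

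Acetylation of histone H3 at lysine 9 and lysine 56 marks active promoters and enhancers, and Sirt6 is a NAD-dependent deacetylase that removes both marks. Contigs left out of the placed assembly are rich in satellite repeats, segmental duplications and ribosomal or Y-linked multicopy sequence. Reads from many genomic copies can be assigned to the few copies an assembly holds, which raises the read density there in every library of that genome, including control DNA. A control library enters a peak call as the local background and takes such shared density into account. The acetylation lists had no control and took their background from the 10000 bp around each peak in the same library, per the file headers, whereas the Sirt6 list used whole-cell extract.

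The acetylation libraries held 5782181 to 10250030 filtered tags, the WT Sirt6 library 2008232, and the KO Sirt6 libraries 40006795 and 48956556. Among acetylation libraries the estimated fragments were shortest for untreated WT, at 155 bp in the H3K9ac library and 175 bp in that of H3K56ac, and spanned 198 to 227 bp otherwise. Peak values are as deposited: the pileup is the number of overlapping extended fragments at the summit, and the fold enrichment is the ratio of the pileup to the local background, with 1 added to each. No sequence or gene annotation of mm9 was used here, so the regions are given by position alone.

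The contig regions were called in more of the lists than regions elsewhere. All 8 lists called 65 of 221 contig regions (29.4%), against 928 of 6179 placed regions (15.0%), a difference of 14.4 percentage points (8.71 to 20.8). A single list called 60 contig regions (27.1%), against 2643 placed regions (42.8%), a difference of -15.6 points (-21.2 to -9.29). The median contig region was called in 5 lists and the median placed region in 2.

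The excess was found on chrUn_random, where 45 of 114 regions were called in all 8 lists (39.5%) and 18 in a single list (15.8%), with a median of 6 lists. On chrY_random 16 of 86 regions were called in all 8 (18.6%) and 37 in a single list (43.0%), with a median of 2 lists. The share called in all 8 lists differed by 20.9 points between chrUn_random and chrY_random (8.13 to 32.3). Between chrY_random and the placed chromosomes it differed by 3.59 points, with an interval from -3.29 to 13.1 that holds 0. Of the 21 regions on other contigs, 4 were called in all 8 lists. Without chrUn_random the contig excess fell to 3.67 points (-2.65 to 12.1).

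**Figure D1:**
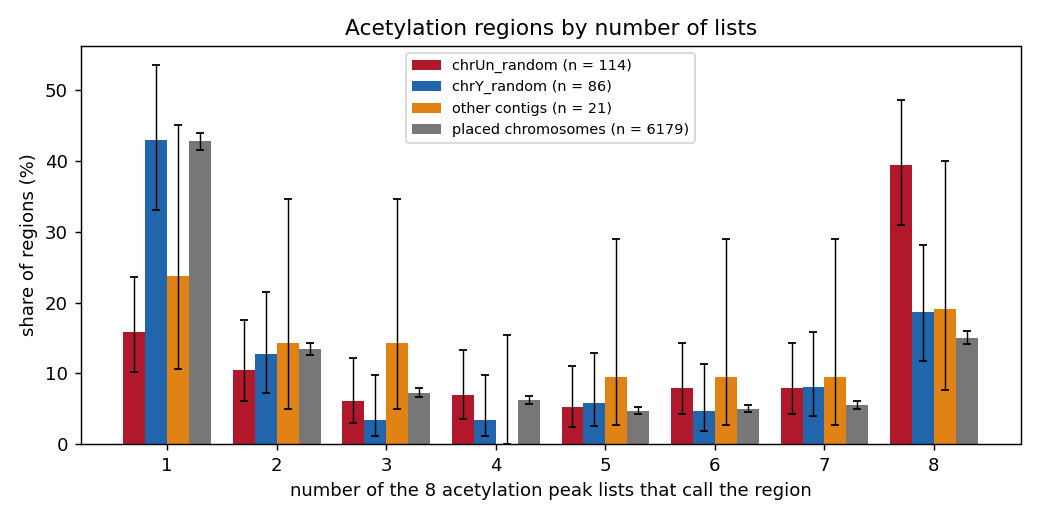
Share of acetylation regions (y axis, percent of the regions of each set) by the number of the 8 H3K9ac and H3K56ac lists that call them (x axis), for chrUn_random, chrY_random, the other contigs and the placed chromosomes. Bars are shares and whiskers Wilson 95% intervals; chrUn_random has its tallest bar at 8 lists (39.5%), whereas chrY_random (43.0%) and the placed chromosomes (42.8%) have theirs at 1 list.

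Regions on chrUn_random were also longer. The median length was 378.5 bp on chrUn_random, 250 bp on chrY_random and 253 bp on placed chromosomes. Regions over 500 bp made up 39 of 114 on chrUn_random (34.2%), 6 of 86 on chrY_random (6.98%) and 109 of 6179 elsewhere (1.76%). Among regions called in all 8 lists, the median distance between the outermost summits was 163 bp on chrUn_random, 52.5 bp on chrY_random and 51 bp on placed chromosomes. This distance counts every peak of a region, several from the same list included. The region chrUn_random:5872586-5873868, for example, held 14 peaks and spanned 927 bp between summits. The wider spread on chrUn_random thus does not measure disagreement between lists. A region in more lists is also a union of more peaks, which lengthens it.

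Density was computed per Mb of span, the span being the distance from the start of the sequence to the furthest peak end in any list, which makes each value an upper bound on the density of the whole sequence. On that scale chrUn_random held 19.3 acetylation regions per Mb, chr4_random 13.9, chr9_random 9.97, chr7_random 6.23, chr8_random 6.09, chrX_random 3.36, chr1_random 1.82 and chrY_random 1.47. The 19 autosomes held 2.12 to 2.67 per Mb. Except for chrUn_random and chrY_random, each contig value rests on 2 to 6 regions. Contigs thus lay on both sides of the autosomes, with chrUn_random the densest and chrY_random the sparsest of the nuclear sequences with a region. The placed part of chromosome Y held 23 regions, or 8.30 per Mb.

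Within chrUn_random the regions were crowded toward the far end of the sequence. Counted by successive Mb from its start, there were 1, 1, 5, 25, 29 and 53 regions, of which 0, 0, 1, 7, 12 and 25 were called in all 8 lists. A neighbouring region within 10000 bp was found for 96 of the 114 regions (84.2%), against 22 of 86 on chrY_random (25.6%) and 11.1% of regions on autosomes. On chrY_random the counts per successive 10 Mb were 21, 18, 5, 9, 21 and 12.

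**Figure D2:**
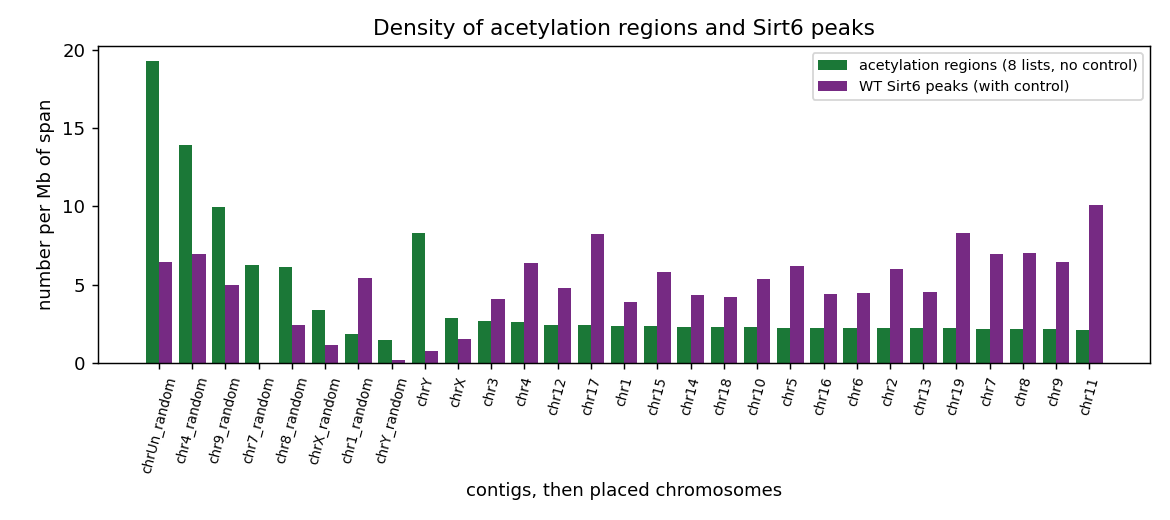
Number of acetylation regions and of WT Sirt6 peaks per Mb of span (y axis) on each nuclear sequence with an acetylation region (x axis). Contigs are on the left and placed chromosomes on the right, and the mitochondrial genome is left out. Among the sequences shown, acetylation density is highest on chrUn_random (19.3 per Mb) and lowest on chrY_random (1.47). Sirt6 density on chrUn_random (6.44) lies within the autosomal range of 3.91 to 10.1.

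Fold enrichment was lower on the contigs as a whole even though the pileups were higher, and the lower fold was found on chrUn_random. The median over regions of the highest fold in any list was 7.68 on contigs and 9.28 on placed chromosomes, with the contig regions running from 2.66 to 34.0. By sequence it was 5.72 on chrUn_random, 9.03 on chrY_random and 9.74 on the other contigs. Without chrUn_random the contig median was 0.17 above the placed one (-1.04 to 1.75). In each of the 8 lists taken alone, the median fold was lower on contigs (6.60 to 7.78) than on placed chromosomes (8.24 to 12.1). The interval of this difference held 0 in untreated KO H3K9ac (-0.87, from -1.81 to 0.00790) and lay below 0 in the other 7 lists. The median pileup in the same lists was 34 to 44.5 fragments on contigs and 18 to 25 on placed chromosomes.

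The local background that links these values, computed as the pileup plus 1, divided by the fold, minus 1, separated chrUn_random from the rest. Its median was 6.59 to 10.6 fragments at chrUn_random peaks in the 8 lists, against 0.778 to 1.25 fragments at placed peaks, a ratio of 6.15 to 10.8. At chrY_random peaks it was 0.739 to 1.27 fragments, a ratio to placed peaks of 0.856 to 1.14. In KO H3K9ac after RA the chrY_random median of 1.12 was a low value shared by many chrY_random peaks. Where the background sits at such a floor, likeness does not show that the local densities were alike. The median pileup on chrUn_random was 39 to 58 fragments, and on chrY_random 20.5 to 24. Peaks on chrY_random thus had pileups and implied backgrounds like those of placed peaks, while chrUn_random peaks stood on a high background in every acetylation list. The part of this background in the number of lists that call a region was not tested.

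**Figure D3:**
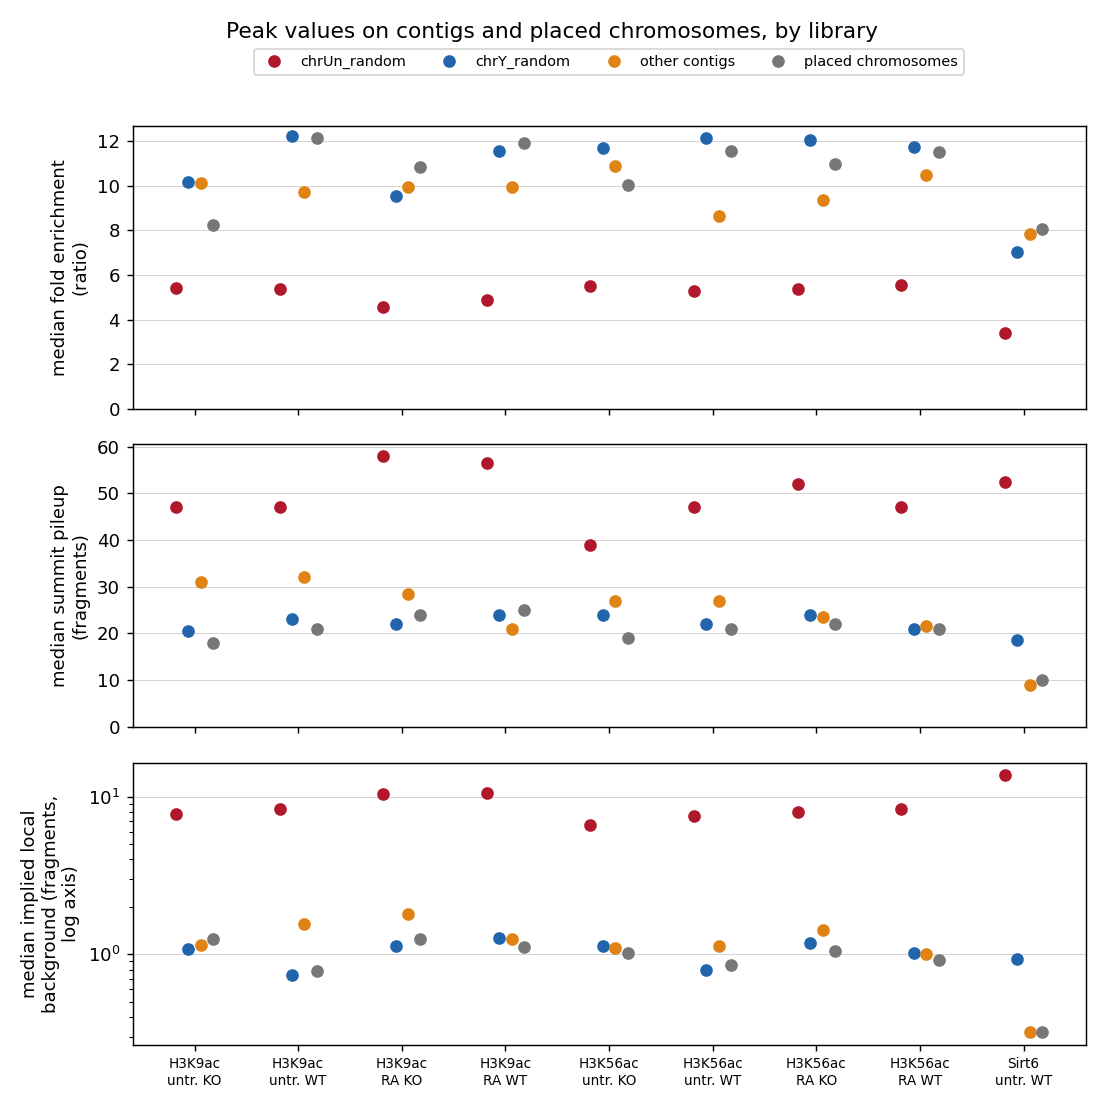
Median fold enrichment (top, ratio), summit pileup (middle, fragments) and implied local background (bottom, fragments, log axis) of the peaks of each library (x axis), for chrUn_random, chrY_random, the other contigs and the placed chromosomes. In all 8 acetylation lists and in the WT Sirt6 list, chrUn_random has the lowest median fold, the highest median pileup and the highest background; the Sirt6 background there is 13.7 fragments.

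The highest fold on a contig belonged to chrY_random:58449538-58449883, a region of 346 bp called in all 8 lists and overlapped by no Sirt6 peak. Its H3K9ac fold was 34.0 in KO and 28.5 in WT untreated cells, and 29.9 in KO and 30.4 in WT after RA. Its H3K56ac fold was 31.2 in KO and 32.9 in WT untreated cells, and 29.3 in KO and 26.4 in WT after RA. The 8 values lay within 26.4 to 34.0, with neither genotype higher throughout.

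Of the 10 contig regions with the highest fold, 9 lay on chrY_random and 1 on chrUn_random. The one on chrUn_random, at chrUn_random:2895370-2895660, was 291 bp long and carried a Sirt6 peak. Its H3K9ac fold was 25.8 in KO and 15.9 in WT untreated cells, and 22.7 in KO and 24.9 in WT after RA. Its H3K56ac fold was 25.9 in KO and 18.0 in WT untreated cells, and 24.7 in KO and 23.7 in WT after RA. The untreated WT libraries gave the lowest values for both marks, and they were also the libraries with the shortest fragments; the part of fragment length in this was not tested.

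The longest region showed the opposite build, with a very high pileup and a low fold. It was chrUn_random:5495452-5497262, of 1811 bp, called in all 8 lists. Its H3K9ac pileup was 337 fragments in KO and 274 in WT untreated cells, and 345 in KO and 327 in WT after RA. Its H3K56ac pileup was 310 in KO and 281 in WT untreated cells, and 343 in KO and 323 in WT after RA. The fold was 5.58 to 5.91 in all 8 lists. A second chrUn_random region, at chrUn_random:5248915-5249746, had pileups of 244 to 312 fragments with folds of 9.97 to 12.9. Both were overlapped by a WT Sirt6 peak.

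On the smaller contigs the region called in most lists, with ties broken by the highest fold, was chr9_random:97559-97855 with folds of 10.9 to 20.04, chr1_random:272483-272943 with 13.7 to 22.4 and chr4_random:143046-143425 with 12.5 to 17.0, each in all 8 lists. On chr9_random a second region, at chr9_random:242453-243629, was also called in all 8 lists, with a highest fold of 10.3. On chrX_random it was chrX_random:1342580-1342944, in 7 lists with folds of 8.19 to 13.2. On chr8_random it was chr8_random:772033-772622, in 6 lists with folds of 5.01 to 8.34, and on chr7_random chr7_random:320612-320843, in the RA H3K56ac lists alone with 7.64 in KO and 8.32 in WT. Of these regions the one on chr8_random alone carried a Sirt6 peak.

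Where all 8 lists called a region, its fold varied less between lists on chrUn_random than elsewhere. The median ratio of the highest to the lowest of the 8 folds was 1.39 on chrUn_random, 1.75 on chrY_random and 1.68 on placed chromosomes. The H3K9ac list from untreated WT cells held the highest of the 8 values at 24 of 65 contig regions and at 305 of 928 placed ones.

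Most contig regions carried both marks and were called in both genotypes. Both marks were called at 144 of 221 contig regions (65.2%), H3K9ac alone at 62 (28.1%) and H3K56ac alone at 15 (6.79%), while on placed chromosomes the shares were 51.5%, 36.4% and 12.1%. On chrUn_random both marks were called at 88 of 114 (77.2%), and on chrY_random at 41 of 86 (47.7%). Regions called in KO lists alone made up 46 contig regions (20.8%) and those in WT lists alone 32 (14.5%), against 35.4% and 18.1% of placed regions. Both conditions called 150 contig regions (67.9%), against 47.2% of placed ones.

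The genotype split differed between the main contigs. On chrY_random 35 of 86 regions were called in KO lists alone (40.7%) and 10 in WT lists alone (11.6%), while on chrUn_random 8 of 114 were called in KO lists alone (7.02%) and 18 in WT lists alone (15.8%). Of the 60 contig regions called in a single list, 22 came from KO H3K9ac after RA, the acetylation library with the most tags, and 20 of these were on chrY_random. That library gave 276 of the 2643 placed regions called in a single list, whereas untreated KO H3K9ac gave 1123 of them and 7 of the contig ones. With a deposited -log10 q of at least 10, chrY_random kept 56 regions, of which 13 were called in KO lists alone and 7 in WT lists alone. With the 8 lists cut to equal length it kept 51, of which 10 were called in KO lists alone and 8 in WT lists alone. The KO count on chrY_random was thus nearer to the WT count among strong peaks and in lists of equal length.

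In each pair of KO and WT lists the contig regions were shared more often than regions over the whole genome. For untreated H3K9ac, 30 of 169 contig regions were called in KO only, 98 in both and 41 in WT only, against 42.6%, 31.9% and 25.5% of all regions. For H3K9ac after RA, 41 of 176 were called in KO only, 120 in both and 15 in WT only, against 24.7%, 65.8% and 9.53% of all. For untreated H3K56ac, 17 of 146 were called in KO only, 78 in both and 51 in WT only, against 23.9%, 38.1% and 38% of all. For H3K56ac after RA, 22 of 123 were called in KO only, 86 in both and 15 in WT only, against 22.2%, 62.4% and 15.3% of all. The shared part was clearly larger on contigs in the untreated pairs, at 58.0% (50.5 to 65.2) for H3K9ac and 53.4% (45.3 to 61.3) for H3K56ac. After RA the pooled value was close to the background, at 68.2% (61.0 to 74.6) and 69.9% (61.3 to 77.3). For H3K9ac after RA this pooled unlike sequences, with 81.1% (72.0 to 87.7) shared on chrUn_random and 51.5% (39.7 to 63.2) on chrY_random. Against 65.8% of all regions, chrUn_random thus lay above and chrY_random below.

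Where both genotypes called a region, the fold was on balance lower in KO for untreated cells and near equal after RA. The median log2 ratio of KO to WT fold was -0.23 over 98 contig regions for untreated H3K9ac, against -0.22 over placed regions. This pooled value joined -0.17 on chrUn_random and -0.54 on chrY_random. Over all contigs the median was -0.01 for H3K9ac after RA, -0.13 for untreated H3K56ac and -0.04 for H3K56ac after RA. Placed regions had 0.01, -0.23 and -0.04 in the same order. For untreated H3K9ac, 3 contig regions were over 1.5 times higher in KO and 19 were lower by that ratio, where 7.83% and 24.4% of all shared regions were. On chrUn_random 1 was higher and 6 lower of 63 shared regions, and on chrY_random 1 was higher and 13 lower of 29. For H3K9ac after RA the counts were 1 and 1 of 120, where 1.93% and 2.11% of all were. For untreated H3K56ac they were 4 higher and 9 lower of 78, where 6.23% and 22% of all were, and for H3K56ac after RA 2 higher and 0 lower of 86, where 3.16% and 3.1% of all were. Pileups scaled to the tags of each library gave medians of -0.02 for untreated H3K9ac and 0.15 for untreated H3K56ac on contigs. By sequence, the untreated H3K9ac median on that scale was 0.01 on chrUn_random and -0.32 on chrY_random. For H3K9ac the KO value was thus still the lower on chrY_random. For untreated H3K56ac the scaled median was 0.16 on chrUn_random and 0.04 on chrY_random. The H3K56ac fold gave -0.37 on chrY_random, so the lower KO value there was not seen in the scaled pileup.

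**Figure D4:**
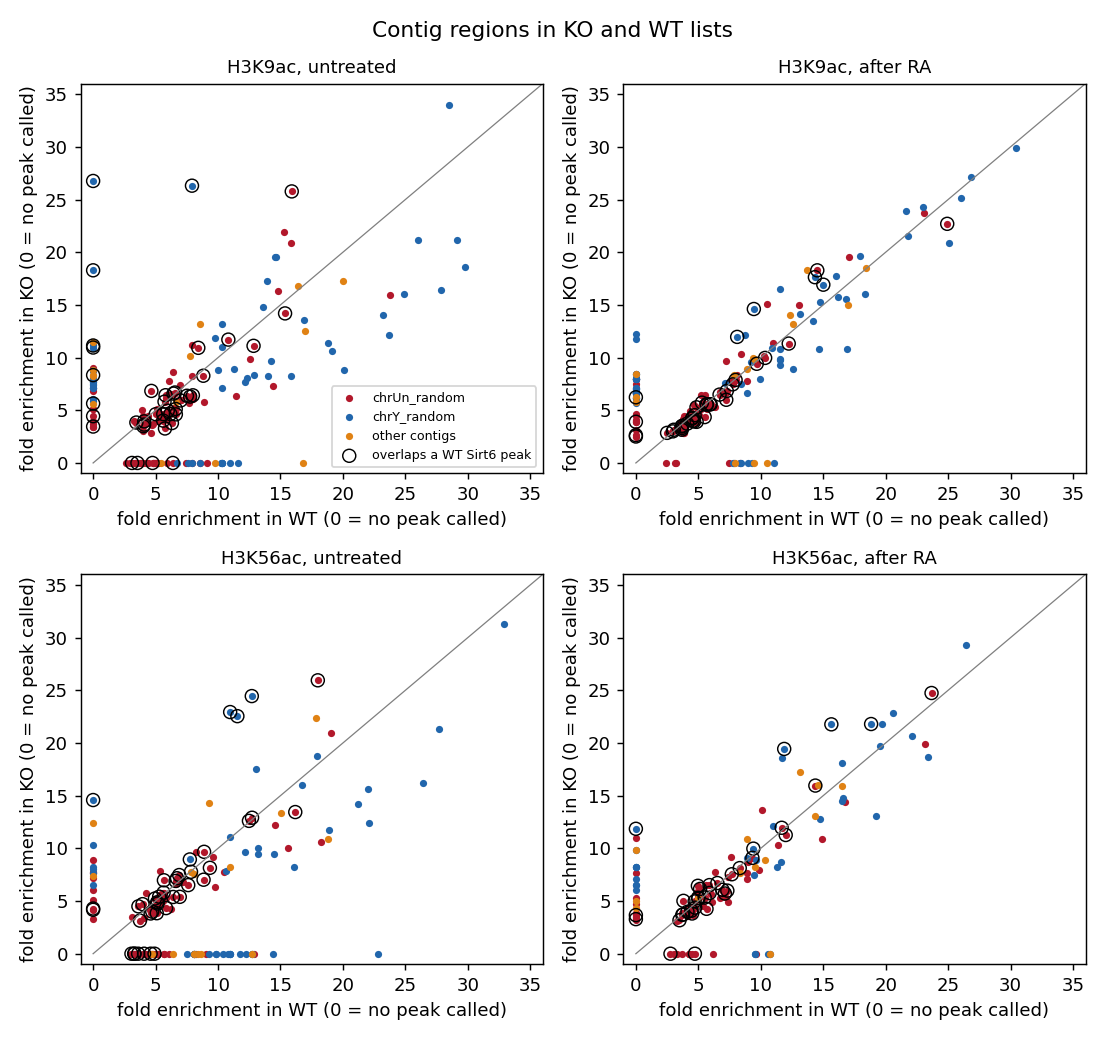
Fold enrichment of each contig region in KO (y axis, ratio) against WT (x axis, ratio) for each mark and condition, with 0 where a list calls no peak and a ring where a WT Sirt6 peak overlaps. Among regions called in both genotypes, the points lie closer to the diagonal after RA than in untreated cells; regions called in 1 genotype lie on the axes, and the ringed chrY_random regions, at 26.3 in KO and 7.92 in WT for one called in both untreated H3K9ac lists, lie above the diagonal or on the KO axis.

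Between RA and untreated cells, most contig regions were again called in both. For KO H3K9ac, 50 of 178 contig regions were called after RA only, 111 in both and 17 untreated only, against 23.9%, 42.7% and 33.4% of all regions. For WT H3K9ac the counts were 25, 110 and 29 of 164, against 22.4%, 50.9% and 26.7% of all. For KO H3K56ac they were 26, 82 and 13 of 121, against 22.9%, 54.4% and 22.7% of all. For WT H3K56ac they were 10, 91 and 38 of 139, against 14.8%, 49.2% and 36% of all. Fold ratios past 1.5 between RA and untreated were few on contigs. For KO H3K9ac, 2 shared contig regions were higher and 3 lower after RA, where 8.71% and 2.84% of all shared regions were. For WT H3K9ac, 4 were higher and 8 lower, where 7.4% and 13.3% of all were. For KO H3K56ac, 1 was higher and 0 lower, where 4.15% and 2.55% of all were, and for WT H3K56ac, 1 was higher and 3 lower, where 4.63% and 15.2% of all were. The median log2 ratio of RA to untreated fold on contigs was 0.00 in KO and -0.15 in WT for H3K9ac, and -0.03 in KO and -0.10 in WT for H3K56ac. On placed chromosomes it was 0.14 in KO and -0.11 in WT for H3K9ac, and 0.06 in KO and -0.19 in WT for H3K56ac. By sequence, the KO medians were -0.09 on chrUn_random and 0.14 on chrY_random for H3K9ac, and -0.06 and 0.06 for H3K56ac. The WT medians were -0.16 on chrUn_random and -0.12 on chrY_random for H3K9ac, and -0.10 and -0.17 for H3K56ac.

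The marks overlapped widely within each genotype and condition. In untreated KO cells 43 of 138 contig regions had H3K9ac only, 85 both marks and 10 H3K56ac only, against 45.3%, 42.7% and 11.9% of all regions. In KO cells after RA the counts were 66, 95 and 13 of 174, against 35.8%, 54.3% and 9.84% of all. In untreated WT cells they were 25, 114 and 15 of 154, against 21%, 59% and 20.1% of all, and in WT cells after RA 41, 94 and 7 of 142, against 29.9%, 59.3% and 10.8% of all. Both marks together were thus more common on contigs than over all regions in the untreated libraries, with KO cells at 61.6% (53.3 to 69.3) and WT cells at 74.0% (66.6 to 80.3). After RA, KO cells had both marks at 54.6% (47.2 to 61.8) of contig regions and WT cells at 66.2% (58.1 to 73.5). These intervals hold the background, but the values pooled unlike sequences. In KO after RA the share was 64.9% (54.8 to 73.8) on chrUn_random and 38.5% (27.6 to 50.6) on chrY_random. Against 54.3% of all regions, chrUn_random thus lay above and chrY_random below. In WT after RA it was 70.9% (60.6 to 79.5) on chrUn_random, above 59.3% of all regions. On chrY_random it was 59.5% (44.5 to 73.0), which holds that background. In KO after RA 34 of 65 chrY_random regions had H3K9ac only (52.3%), against 35.7% of placed regions. The H3K9ac library of that pair held 10250030 filtered tags and the H3K56ac library 6837952. The part of depth in this was not tested.

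The folds of the marks at shared contig regions were close. The median log2 ratio of H3K9ac to H3K56ac fold was 0.00 in untreated KO, 0.06 in KO after RA, 0.04 in untreated WT and 0.01 in WT after RA. In the same order it was -0.02, -0.05, 0.04 and -0.01 on chrUn_random and 0.13, 0.20, 0.06 and 0.12 on chrY_random. On placed chromosomes it was 0.09, 0.19, 0.08 and 0.15, near the chrY_random values. Ratios past 1.5 were found in untreated KO at 3 regions higher and 0 lower for H3K9ac, where 5.75% and 1.78% of all shared regions were. In KO after RA 6 were higher and 0 lower, where 12.1% and 2.28% of all were. In untreated WT 3 were higher and 1 lower, where 6.83% and 4.47% of all were, and in WT after RA 2 were higher and 0 lower, where 7.27% and 1.44% of all were.

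The share of each list's peaks that fell on contigs lay between 3.67% and 5.63%. For untreated H3K9ac it was 3.67% in KO (132 of 3593 peaks) and 5.63% in WT (157 of 2789), a difference of -1.96 points (-3.03 to -0.917). For H3K9ac after RA it was 5.43% in KO (171 of 3147) and 5.41% in WT (142 of 2626), a difference of 0.0263 points (-1.16 to 1.19). For untreated H3K56ac it was 4.47% in KO (100 of 2235) and 5.05% in WT (139 of 2750), and after RA 4.87% in KO (109 of 2239) and 5.28% in WT (109 of 2063), with intervals of -1.76 to 0.626 and -1.75 to 0.899 points. For H3K9ac, RA minus untreated was 1.76 points in KO (0.765 to 2.78) and -0.222 in WT (-1.44 to 1.00). For H3K56ac it was 0.394 in KO (-0.850 to 1.64) and 0.229 in WT (-1.02 to 1.52).

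Both H3K9ac differences whose intervals lay off 0 involved the untreated KO list, the longest of the 8. Among peaks with a -log10 q of at least 10, KO minus WT in untreated H3K9ac was -0.266 points (-1.59 to 1.09) and RA minus untreated in KO 0.125 (-1.21 to 1.41). With lists cut to equal length they were -0.339 (-1.70 to 1.02) and -0.0969 (-1.43 to 1.23).

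Few Sirt6 peaks lay on contigs. Of the 14510 peaks of the WT Sirt6 list, 62 were on contigs (0.427%), against 3.45% of acetylation regions, a difference of -3.03 points (-3.51 to -2.59). The KO Sirt6 lists held 0 peaks on any sequence, at a greater depth than the WT list. The whole-cell extract held 5113859 filtered tags for KO and 6251712 for WT. The KO extract was thus shallower than the KO Sirt6 libraries, and the WT extract deeper than the WT one. The part of this in the empty KO lists was not tested. The 62 peaks comprised 38 on chrUn_random, 8 on chrY_random and 16 on other contigs, of which 6 were on chr1_random. They also included 2 on chr13_random and 1 on chr17_random, where no acetylation region was called. Sirt6 density was 6.44 peaks per Mb on chrUn_random and 0.137 on chrY_random, against 3.91 to 10.1 on autosomes. The placed sex chromosomes also lay below the autosomes, at 1.54 on chrX and 0.722 on chrY, the latter from 2 peaks.

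Most of the contig Sirt6 peaks coincided with acetylation, in contrast to Sirt6 peaks elsewhere. An acetylation region lay under 44 of the 62 (71.0%, 58.7 to 80.8), against 1677 of 14448 placed Sirt6 peaks (11.6%, 11.1 to 12.1). The coincidence was 37 of 38 on chrUn_random, 5 of 8 on chrY_random and 2 of 16 on the other contigs. Each acetylation list alone overlapped 33 to 40 of the 62 contig peaks (53.2% to 64.5%), against 0.810% to 9.07% of placed ones. The list with the highest placed share was untreated KO H3K9ac, which overlapped 38 of the contig peaks, the same number as untreated WT H3K56ac.

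Seen from the acetylation side, 43 of 221 contig regions carried a Sirt6 peak (19.5%, 14.8 to 25.2), against 1680 of 6179 placed regions (27.2%), a difference of -7.73 points (-12.5 to -1.91). On chrUn_random 36 of 114 did (31.6%), and on chrY_random 5 of 86 (5.81%). The share varied with the number of lists. On chrUn_random a Sirt6 peak overlapped 1 of 18 regions called in a single list (5.56%), 22.2% of those in 2 to 4 lists, 16.7% of those in 5 to 7 and 25 of 45 called in all 8 (55.6%, 41.2 to 69.1). On placed chromosomes it overlapped 47.1% of regions called in a single list, 16.5% of those in 2 to 4 lists, 5.53% of those in 5 to 7 and 108 of 928 called in all 8 (11.6%, 9.73 to 13.9). Regions called in all 8 lists thus had the highest share on chrUn_random, and those called in a single list had it on placed chromosomes. On chrY_random the shares were 0 of 37 regions in a single list, 1 of 17 in 2 to 4 lists, 3 of 16 in 5 to 7 and 1 of 16 in all 8. For untreated H3K9ac, 28 of the 36 chrUn_random regions with a Sirt6 peak were called in both genotypes, 2 in KO only and 4 in WT only, whereas of the 1680 placed ones 113 were called in both, 1196 in KO only and 5 in WT only. Within chrUn_random the Sirt6 peaks were crowded where the acetylation regions were, with 0, 0, 1, 7, 9 and 21 in successive Mb.

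**Figure D5:**
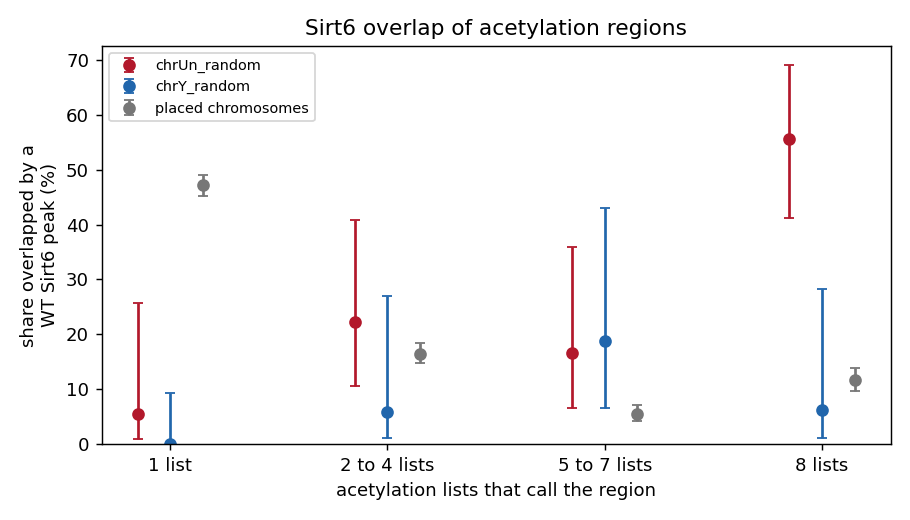
Share of acetylation regions overlapped by a WT Sirt6 peak (y axis, percent) by the number of acetylation lists that call the region (x axis), for chrUn_random, chrY_random and the placed chromosomes; points are shares and whiskers Wilson 95% intervals. On chrUn_random the share is highest at 8 lists (55.6%), whereas on placed chromosomes it is highest at 1 list (47.1%).

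The Sirt6 peaks on chrUn_random were of low fold and high pileup, as the acetylation peaks there were. Their median fold was 3.42 and their median pileup 52.5 fragments, against 8.08 and 10 fragments at placed Sirt6 peaks. The implied background, which here takes the whole-cell extract into account, was 13.7 fragments on chrUn_random and 0.321 on placed chromosomes, a ratio of 42.5. The placed value lay near the floor of this measure. The lowest background at any contig Sirt6 peak was 0.237, and both 0.237 and 0.321 recurred there. The size of the ratio thus depends on that floor. Over all 62 contig peaks the median fold was 4.38, the pileup 36.5 fragments and the background 8.19 fragments. The 108 placed Sirt6 peaks on regions called in all 8 lists also had a high median pileup, of 79 fragments, and a high background, of 9.32 fragments, but their median fold of 6.95 was nearer to that of all placed Sirt6 peaks. The most extreme contig peak, chrUn_random:5495465-5497243, had a pileup of 313 fragments over a background of 106.0 and a fold of 2.93, and it lay in the longest acetylation region.

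Contig Sirt6 peaks without acetylation looked different. The 18 of them had a median pileup of 8.5 fragments, a background of 0.237, the lowest value of any contig Sirt6 peak, and a fold of 6.47. The 44 on an acetylation region had a median pileup of 46 fragments, a background of 12.0 and a fold of 3.55. The contig Sirt6 peak of highest fold, at chr8_random:772122-772703, had a fold of 15.7 and a pileup of 50 and lay on the 6-list region described above. It was followed by chrY_random:3954504-3954752 with 14.7 and by chr1_random:318347-318817 with 12.9. All 6 Sirt6 peaks of chr1_random lay on no acetylation region.

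The 5 chrY_random regions that carried a Sirt6 peak had higher acetylation folds in KO than in WT wherever both lists called them. They all lay in the first 10 Mb of the sequence. In untreated cells H3K9ac was called at 5 of 5 in KO and at 1 of 5 in WT. At chrY_random:3954483-3954752 the untreated KO folds were 11.1 for H3K9ac and 14.6 for H3K56ac, and no WT list called a peak in either condition.

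At chrY_random:4550946-4551238 the untreated H3K56ac fold was 22.9 in KO and 11.0 in WT, and the untreated H3K9ac fold was 18.3 in KO with no WT call. After RA the H3K9ac fold was 14.6 in KO and 9.45 in WT, and the H3K56ac fold 19.4 in KO and 11.9 in WT. The KO value was higher in each of the 3 pairs called in both.

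At chrY_random:6437297-6437656 the untreated H3K56ac fold was 22.5 in KO and 11.5 in WT, and the untreated H3K9ac fold was 26.8 in KO with no WT call. After RA the H3K9ac fold was 17.6 in KO and 14.3 in WT, and the H3K56ac fold 21.8 in KO and 18.8 in WT. For H3K56ac the gap between genotypes was narrower after RA than in untreated cells, with a lower KO value and a higher WT value.

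At chrY_random:7866895-7867239, the one region called in all 8 lists, the untreated H3K9ac fold was 26.3 in KO and 7.92 in WT, and the untreated H3K56ac fold 24.4 in KO and 12.7 in WT. After RA the H3K9ac fold was 16.9 in KO and 15.0 in WT, and the H3K56ac fold 21.8 in KO and 15.7 in WT. At chrY_random:8260829-8261171 the untreated H3K56ac fold was 8.95 in KO and 7.74 in WT. After RA the H3K9ac fold there was 12.0 in KO and 8.11 in WT, and the H3K56ac fold 9.97 in KO and 9.41 in WT.

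The summit pileup scaled to the library's filtered tags (fragments per 1e6 tags) gave the same order in all pairs called in both genotypes but one. For untreated H3K56ac it was 10.0 in KO and 2.31 in WT at the second of these regions in order of position, 9.86 and 2.44 at the third, 10.9 and 2.70 at the fourth, and 3.29 and 1.67 at the fifth. For H3K9ac after RA it was 2.93 in KO and 1.99 in WT at the second, 3.80 and 3.17 at the third, 3.51 and 3.64 at the fourth, and 3.22 and 2.35 at the fifth. The exception is the fourth region after RA, where the KO pileup was slightly below that of WT. The untreated WT libraries had the shortest fragments, and the part of fragment length in the untreated differences was not tested; after RA the fragment lengths were 204 bp in KO and 198 bp in WT for H3K9ac, and 227 bp in KO and 207 bp in WT for H3K56ac.

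The chrY_random regions without a Sirt6 peak did not share this order in fold. Over the 81 chrY_random regions with no Sirt6 peak, the median log2 ratio of KO to WT fold was -0.54 for untreated H3K9ac, with 8 of 28 shared regions above 0, and -0.43 for untreated H3K56ac, with 3 of 17 above 0. The regions with a Sirt6 peak had a value of 1.73 from 1 region for untreated H3K9ac and a median of 0.95 from 4 regions for untreated H3K56ac. After RA their medians were 0.43 for H3K9ac and 0.34 for H3K56ac, against -0.04 and -0.11 for those without. On chrUn_random the regions with a Sirt6 peak had medians of -0.19 for untreated H3K9ac and -0.03 for untreated H3K56ac, against -0.17 and -0.14 for those without. On placed chromosomes the regions with a Sirt6 peak had untreated medians of 0.29 for H3K9ac and 0.01 for H3K56ac. Those without had -0.26 and -0.28. At placed regions with a Sirt6 peak the KO fold was thus on balance higher for untreated H3K9ac. For untreated H3K56ac it was near equal, with 95 of 186 shared regions above 0. After RA the placed medians were 0.05 for H3K9ac and 0.02 for H3K56ac with a Sirt6 peak, against 0.005 and -0.04 without. All these ratios are of fold, and the size of the KO deficit depends on the measure. On scaled pileup, all shared chrY_random regions together had medians of -0.32 for untreated H3K9ac and 0.04 for untreated H3K56ac. The 5 chrY_random regions with a Sirt6 peak lie on 1 contig sequence. Whether they are copies of one another was not tested, so they are not independent observations.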

How the data were processed

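The labels put the 17 samples in 17 groups of 1 library, of which 11 ChIP-seq libraries have a peak list. The members and lists were chosen with earlier results of these data known. Per the submitters' processing notes, BWA 0.5.9 aligned the reads to mm9, Picard was used in a step not named there, and MACS2 2.0.10 called peaks. The deposited lists hold, per peak, the fold enrichment (a ratio), the summit pileup signal and p and q on the −log10 scale, at a q limit of 0.01 and 1 tag per position, per the file headers. The deposited CMS-IP p-values were used only to state what that table lists. Unused columns of per-sample values numbered 0.

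Peaks were merged at 1 bp of overlap. Shares carry Wilson and differences Newcombe 95% intervals; intervals of median differences combine order-statistic intervals. The background formula returned the deposited −log10 p within 0.01 for 21424 of 21442 acetylation peaks and 14510 of 14510 Sirt6 peaks. The merging was tested on simulated data. Named regions were the 10 of highest fold, each contig's region in most lists (ties by fold), and the 10 of highest fold with a Sirt6 peak, of which the text gives the chrY_random ones and a few others; the longest region was added after its values were seen. Alternatives were 50% overlap, joining within 1000 bp, a stricter −log10 q of 10, equal list lengths, autosomes only, no chrUn_random and no regions called in all 8 lists. Software was matplotlib 3.10.9, scipy 1.17.1, pandas 2.3.3 and numpy 2.4.6 under Python 3.11.15.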

Additional observations from a re-analysis of the deposited data

Results flagged for a closer look

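The differences in the contig share of H3K9ac peaks had opposite signs in pairs of conditions, and whether these differences differ was not tested. KO minus WT was 0.0263 percentage points after RA, with an interval that holds 0 (-1.16 to 1.19), and -1.96 points in untreated cells. After RA it was -0.0980 at a -log10 q of at least 10, -0.436 with lists of equal length and -0.0144 against autosomes, the same sign as in untreated cells. RA minus untreated was 1.76 points in KO and -0.222 points in WT, where the interval also holds 0 (-1.44 to 1.00). All 4 values share the same 4 lists, of which the untreated KO list was the longest.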

How the results depend on the processing

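The contig regions numbered 157 to 226 under other thresholds, overlaps, joining distances and list lengths, and 107 without chrUn_random. The excess called in all lists was 3.67 points without chrUn_random, with an interval that holds 0. The median highest fold on contigs minus placed chromosomes was -4.15 at a -log10 q of at least 10, -3.52 with equal list lengths and 0.17 without chrUn_random, which turns its sign. The Sirt6 minus acetylation share on contigs was -3.79 points at that q and -1.54 without chrUn_random. Sirt6 overlap of contig regions was 12.9% at that q, 6.54% without chrUn_random and 10.9% without regions called in all 8 lists. KO minus WT for untreated H3K9ac was -0.266 points at that q, -0.339 with equal lengths and -0.281 without chrUn_random. RA minus untreated for KO H3K9ac was 0.125 and, reversed, -0.0969 at the first 2 of these. The causes were not tested. Of 72 values under alternatives 53 stayed within their limits; dropping the 2 untreated WT lists, chosen after seeing the data as were the chrY_random alternatives, gave 200 regions and an excess of 14.8 points in all 6 lists left.

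No paired analysis was possible because each group is 1 library, and leaving out a replicate was not possible for the same reason. Peak calls at these depths miss weak peaks, so absence from a list does not show absence of acetylation. Contig lengths and sequence were not used here. The sources used here do not state how multiply mapping reads were handled.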

Other observations

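The placed part of chromosome Y resembled chrY_random in its overlap with Sirt6, at 5 of 86 regions on chrY_random (5.81%) and 1 of 23 on chrY (4.35%), a difference of 1.47 points (-15.5 to 9.40). A single list called 43.0% of regions on chrY_random and 21.7% on chrY, a difference of 21.3 points (-1.20 to 37.3). The median highest fold was 9.03 on chrY_random and 13.4 on chrY.

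The authors' deposited table of CMS-IP windows, which lists windows that differ in 5-hydroxymethylcytosine signal between KO and WT, held 0 of its 3780 windows on contigs and 2 on chrY. The highest deposited p-value in it is 0.000998, so it holds only windows past a limit, and this sets no bound on the signal there.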
